A study of Mus musculus with 6 samples.

Results

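Interferon response and nucleic acid sensing genes were read in RNA-Seq counts of mock and p140Cap TuBo cells, which derive from a BALB/c-MMTV-NeuT mammary carcinoma of the mouse. The 45 genes were chosen by name, with earlier results of these data known. Of them, 44 had a row among the 21960 genes of the deposited counts, matched by gene symbol. Mx2 was not analysed here. The comparison held 3 mock libraries, whose genotype is labelled wt, and 3 libraries labelled as overexpressing p140Cap, an adaptor protein encoded by Srcin1. p140Cap cells carried the p140Cap cDNA in the retroviral vector pBabe-puro, had been selected with puromycin, and were a pool of clones grown from single cells. Both groups derive from cells that carry the activated rat HER2 oncogene under the mammary tumor virus promoter, and the labels name no treatment with interferon or nucleic acid. The sample labels call the material cell lines and the design text calls it mice. They were taken here for the TuBo line that the paper describes.

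Interferons are secreted by cells that detect viral or misplaced nucleic acid. Type I interferons bind the receptor pair Ifnar1 and Ifnar2, and type II interferon binds Ifngr1 and Ifngr2. Both receptors act through JAK kinases on STAT proteins, which with Irf9 and other interferon regulatory factors switch on a large set of interferon-stimulated genes. The RNA sensors encoded by Ddx58 (RIG-I) and Ifih1 (MDA5) signal through Mavs, and the DNA sensor encoded by Mb21d1 (cGAS) signals through the protein encoded by Tmem173 (STING). In tumor cells the same pathway can raise antigen presentation and attract T-lymphocytes and NK cells.

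Of the 44 genes, 30 had enough reads for a test and 14 did not. By edgeR's quasi-likelihood test, with p adjusted over all 11800 genes tested and a threshold of 0.05, 18 of the 30 were higher and 5 were lower in p140Cap cells, and 7 were not called. These 23 called genes are 76.7% of the 30, beside 71.1% of all genes tested. Over all genes tested, 35.2% were called higher and 35.9% lower. With DESeq2 in place of edgeR, 17 of the 30 were higher and 2 were lower. The changes were small. The median log2 fold change of the 30 genes was 0.25, beside 0.00 over all genes tested, and the median of the absolute values was 0.27, beside 0.32. Of the 18 higher genes, 14 rose by less than 0.5 on the log2 scale. Changes of at least 1 log2 unit were limited to Irf7, which rose, and Ifit2, which fell, while 9.97% of all genes tested were called with a change of that size, 4.93% higher and 5.04% lower. In bulk RNA, fewer cells that express a gene and less RNA per cell cannot be told apart. The values of both groups did not overlap for 22 of the 30 genes, or 73.3%, beside 73.4% of all genes tested.

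**Figure D1:**
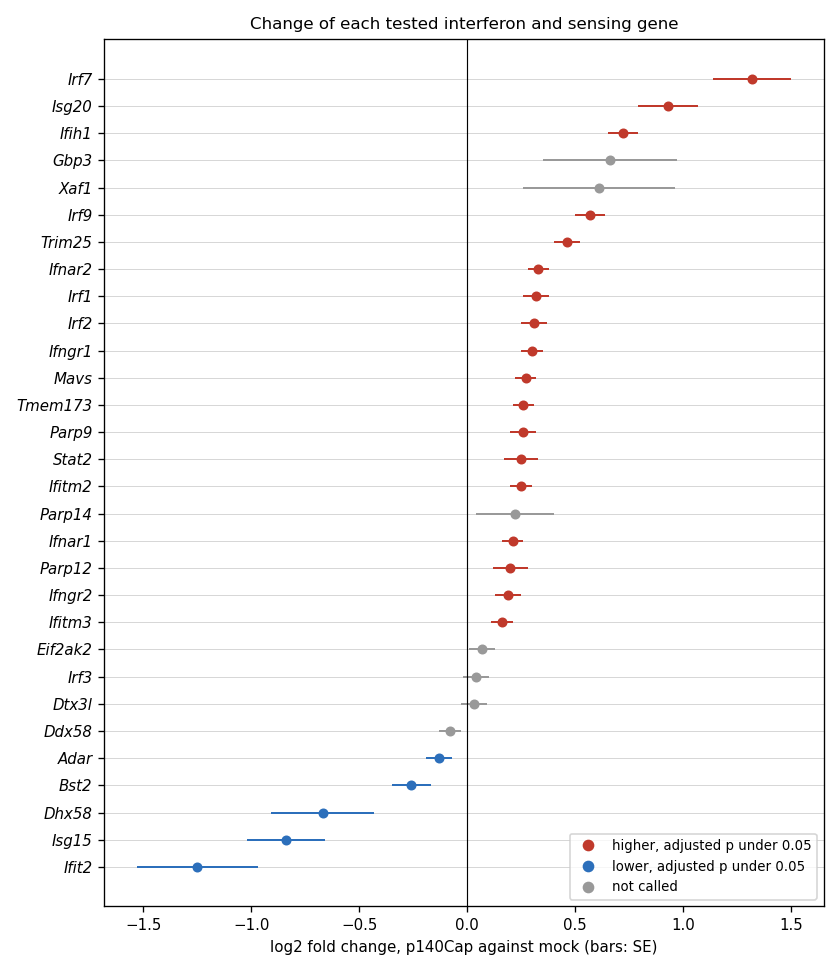
Log2 fold change in p140Cap against mock TuBo cells for the 30 interferon and sensing genes with enough reads, ordered by size, with bars of 1 SE from edgeR's quasi-likelihood fit on 3 libraries a group. Red points are higher, blue points lower and gray points not called at an adjusted p of 0.05. Most red points lie between 0.16 and 0.57, and Irf7 and Ifit2 mark the ends at 1.32 and -1.25.

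Total reads on genes lay between 33058719 and 75506562 in the mock libraries and between 13770385 and 15364850 in the p140Cap libraries, so rare transcripts were measured less precisely in p140Cap cells. Levels below are given as CPM, reads scaled by the TMM-adjusted library size. Srcin1 had between 509 and 1192 reads in mock and between 30546 and 36989 reads in p140Cap libraries, in the direction of the labels. Leukocyte markers were nearly absent. Of the 7 listed, 6 had no read in any library, among them Ptprc, Cd3e, Adgre1, Itgax and Ncr1, and the summed level of all 7 was at most 0.0131 CPM in mock and 0 in p140Cap libraries. The 6 mammary epithelial markers, all with reads, summed to between 5250 and 5570 CPM in mock and between 6180 and 6340 CPM in p140Cap libraries, and the part of this difference in the values below was not tested. The 5 fibroblast markers summed to between 9.97 and 10.5 CPM in mock and between 11.3 and 14.1 CPM in p140Cap libraries, with Col1a2 and Dcn at 0, and the 4 endothelial markers to between 0.210 and 0.478 CPM and between 0.477 and 0.734 CPM, with Kdr at 0.

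All 4 receptor genes were called higher in p140Cap cells, beside 35.2% of all genes tested. Ifnar2 (ENSMUSG00000022971), the chain of the type I receptor that binds interferon most tightly, was at 34.5, 34.5 and 35.1 CPM in the mock libraries and at 42.2, 43.5 and 45 CPM in the p140Cap libraries. Its log2 fold change was 0.33 (SE 0.05, edgeR adjusted p = 4.11e-05). Ifnar1 (ENSMUSG00000022967), the signalling partner, stood at 80.6, 79.9 and 77.4 CPM in mock libraries, against 90.7, 93.9 and 90.0 CPM in p140Cap cells, a change of 0.21 on the log2 scale (SE 0.05, edgeR adjusted p = 0.000976). Each p140Cap library was above each mock library for both chains. Ifngr1 (ENSMUSG00000020009), the ligand-binding chain of the type II receptor, had 41.3, 40.8 and 38.9 CPM in mock libraries, against 50.1, 49.2 and 49.5 CPM in p140Cap cells, a change of 0.30 on the log2 scale (SE 0.05, edgeR adjusted p = 8.13e-05). The accessory chain Ifngr2 changed least, from 27.8 ± 0.683 CPM to 31.7 ± 0.575 CPM (SD, n = 3 each), a change of 0.19 on the log2 scale (edgeR adjusted p = 0.00848). The groups overlapped for none of the 4 genes, as for 73.4% of all genes tested. Leaving out any single library kept the log2 fold change between 0.30 and 0.35 for Ifnar2 and between 0.17 and 0.20 for Ifngr2. Exons of Gm21970 overlap those of Ifnar2 on the same strand.

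Among the 6 transcription factor genes, 5 were higher and 1 was not called, so that 83.3% were called, beside 71.1% of all genes tested. Irf7 (ENSMUSG00000025498), the factor that amplifies type I interferon production and is itself interferon-induced, had the largest increase of all 30 genes. Mock libraries held 75, 42 and 36 reads of it, against 36, 38 and 38 reads in the smaller p140Cap libraries. After normalization these were 0.980, 1.06 and 1.08 CPM in mock libraries, against 2.37, 2.59 and 2.79 CPM in p140Cap cells, so every p140Cap library stood well above every mock library. The log2 fold change was 1.32 (SE 0.18, edgeR adjusted p = 6.05e-06), and it lay between 1.26 and 1.38 with each library left out in turn. Irf9 (ENSMUSG00000002325), which joins Stat2 in the complex that type I interferon activates, was at 25.3, 26.4 and 25.3 CPM in mock libraries, against 42.5, 33.8 and 38 CPM in p140Cap cells. Its log2 fold change was 0.57 (SE 0.07, edgeR adjusted p = 2.35e-06), and the spread among p140Cap libraries was wider than among mock libraries. Exons of Rnf31 overlap those of Irf9 on the same strand in the annotation, and exons of Phrf1 overlap those of Irf7 on the other strand, so some reads of either gene may belong to its neighbour.

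Irf1 (ENSMUSG00000018899), a factor strongly induced by type II interferon, had 29.6, 29.0 and 30.1 CPM in mock libraries, against 36.8, 38.9 and 34.7 CPM in p140Cap cells, a change of 0.32 on the log2 scale (SE 0.06, edgeR adjusted p = 0.000156). Irf2, which binds the same DNA element and can oppose Irf1, rose by a similar amount, a change of 0.31 on the log2 scale (edgeR adjusted p = 0.000447). Stat2 rose from 15.5 ± 1.35 CPM to 18.6 ± 0.370 CPM (SD, n = 3 each), a change of 0.25 on the log2 scale (edgeR adjusted p = 0.00907). The groups overlapped for none of these, as for 73.4% of all genes tested. Irf3, the factor that signalling below the sensors activates through phosphorylation, stood at between 45.8 and 52.6 CPM in mock libraries and between 48.6 and 52.0 CPM in p140Cap libraries. Its groups overlapped, with a change of 0.04 on the log2 scale (SE 0.06, edgeR adjusted p = 0.538).

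The DNA element read by these factors was located in the promoters, taken from RefSeq on GRCm38, the assembly of build mm10 named in the submitters' processing notes. Promoter windows were at hand for 36 of the 45 genes. The core of the interferon-stimulated response element, GAAA followed by 2 bases of any kind and GAAA again, was searched on both strands in the 250 bases before each transcript start of the RefSeq promoter table, where a match on the other strand reads TTTC, 2 bases and TTTC. It was found in 12 of the 36 genes (33.3%) and in 936 of 27025 genes with a window (3.46%). The letters TTCNNNGAA, the core of the site bound by STAT dimers, which reads the same on both strands, were found in 8 of the 36 (22.2%) and in 8.13% of all genes. The genes were chosen as known interferon response genes, so these shares describe the choice. Of the 12 genes with the response element core, 6 had too few reads for a test, 3 were higher, 2 were lower and 1 was not called in p140Cap cells. These directions are read beside the 35.2% higher and 35.9% lower of all genes tested. The starts of the promoter table differ from the outer ends of the genes in RefSeq for some genes, and for 3 of the 12 (Oas1a, Ifit3 and Ifitm2) the matches lay wholly or partly within the annotated gene span. The stretches below are shown because they set higher, lower, uncalled and hardly expressed genes of the same element side by side. Each reads 5′ to 3′ along the strand of its gene, with the matches to the core, on either strand, in capitals.
Stat2, higher, chr10:128270256-128270305, plus strand: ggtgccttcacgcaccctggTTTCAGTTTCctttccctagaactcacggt
Irf2, higher, chr8:46739495-46739533, plus strand: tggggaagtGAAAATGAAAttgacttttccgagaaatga
Gbp3, not called, chr3:142559979-142560034, plus strand: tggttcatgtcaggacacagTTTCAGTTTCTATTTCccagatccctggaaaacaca
Isg15, lower, chr4:156200855-156200916, minus strand: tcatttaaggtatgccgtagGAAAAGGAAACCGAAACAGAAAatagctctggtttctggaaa
Bst2, lower, chr8:71537567-71537622, minus strand: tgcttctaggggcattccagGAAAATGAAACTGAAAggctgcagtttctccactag
Ifit1, too few reads, chr19:34640765-34640833, plus strand: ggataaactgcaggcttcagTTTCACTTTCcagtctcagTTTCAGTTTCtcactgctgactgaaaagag
Isg15 carried 3 overlapping matches, between 56 and 78 bases before the start in the table, and Bst2 carried 2, between 114 and 130 bases before it, the farther of which shares bases with a match to TTCNNNGAA. In Ifit1, 2 separate matches lay between 75 and 104 bases before the start. Irf1 carried a match to the STAT core TTCNNNGAA, shown in capitals, between 81 and 90 bases before the start.
Irf1, higher, chr11:53769904-53769952, plus strand: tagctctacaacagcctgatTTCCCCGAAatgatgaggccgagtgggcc

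Of the 7 sensor and adaptor genes, 4 were higher, 1 was lower, 1 was not called and Mb21d1 had too few reads. Over all genes tested, 35.2% were higher and 35.9% lower. Of the 3 RNA sensor genes, Ifih1 was higher, Dhx58 was lower with a call that some alternatives lost, and Ddx58 was not called. Ifih1 (ENSMUSG00000026896), whose protein MDA5 recognizes long double-stranded RNA, was at 17.2, 16.3 and 15.3 CPM in mock libraries, against 27.6, 25.3 and 28.1 CPM in p140Cap cells. This is 1.65 times higher, a change of 0.72 on the log2 scale (SE 0.07, edgeR adjusted p = 1.26e-07), and no library of either group came near the other group. Ddx58, whose protein RIG-I recognizes RNA ends that carry phosphates, stood at 59.2 ± 2.37 CPM and 56.1 ± 1.95 CPM (SD, n = 3 each), a change of -0.08 on the log2 scale (SE 0.05, edgeR adjusted p = 0.197) with overlapping groups. Dhx58 (ENSMUSG00000017830), whose protein LGP2 lacks the signalling domains of the other sensors and modulates them, had 102, 50 and 50 reads in the mock libraries, against 13, 14 and 10 in the p140Cap libraries, or 1.33, 1.26 and 1.5 CPM beside 0.857, 0.954 and 0.734 CPM. The groups did not overlap, and the log2 fold change was -0.67 (SE 0.24, edgeR adjusted p = 0.0189). Its call was lost without p140Cap replicate 1 (adjusted p = 0.0535), without p140Cap replicate 3 (0.0762) and with DESeq2 (0.0801), and an annotated transcript overlaps it on the other strand.

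Adaptors on both the RNA and the DNA side were higher. Mavs, the mitochondrial adaptor of the RNA sensors, was at 61.5, 62.7 and 60.4 CPM in mock libraries, against 76.8, 76 and 70.4 CPM in p140Cap cells, a change of 0.27 on the log2 scale (SE 0.05, edgeR adjusted p = 0.000146). Tmem173, the adaptor of the DNA sensor, was at 87.9, 91.0 and 92.5 CPM in mock libraries, against 106, 110 and 108 CPM in p140Cap cells, a change of 0.26 on the log2 scale (SE 0.05, edgeR adjusted p = 0.000107). Trim25 (ENSMUSG00000000275), a ubiquitin ligase that activates RIG-I and also attaches Isg15, rose more, from 26.8, 26.8 and 26.4 CPM in mock cells to 37.0, 37.9 and 35.3 CPM in p140Cap cells, a change of 0.46 on the log2 scale (SE 0.06, edgeR adjusted p = 1.9e-06). Each p140Cap library was above each mock library for all 3 genes, where 73.4% of all genes tested had groups without overlap. The DNA sensor itself was hardly detected. Mb21d1 had 10, 8 and 3 reads in the mock libraries, against 0, 0 and 1 in the p140Cap libraries, a level 6.10 times higher in mock cells, and its 95% exact counting interval of 0.981 to 252 included equal levels. Per exon length Tmem173 stood at 146 ± 2.41 TPM in mock and 173 ± 3.37 TPM in p140Cap cells (reads per kilobase of annotated exon, scaled to 1 sum in every library; SD, n = 3 each), while Mb21d1 stood at 0.139 and 0.0238 TPM on the same scale.

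Of the 7 effector genes that act on double-stranded RNA, 1 was lower, 1 was not called and 5 had too few reads. Of all genes tested, 71.1% were called, 35.9% of them all as lower. Eif2ak2, the kinase PKR that stops translation, was at 49.2, 47.9 and 44.6 CPM in mock libraries, against 51.1, 49.8 and 47.9 CPM in p140Cap cells, a change of 0.07 on the log2 scale (SE 0.06, edgeR adjusted p = 0.297). Adar, which edits adenosine to inosine and thereby hides the cell's own double-stranded RNA, was at 56.4, 53.9 and 51.7 CPM in mock libraries, against 49.4, 51.3 and 47.7 CPM in p140Cap cells. The groups lay next to each other without overlap, and the log2 fold change of -0.13 (SE 0.06, adjusted p = 0.0456, edgeR) only just passed the threshold. The call was lost without mock replicate 1 (adjusted p = 0.199) or 2 (0.0647), without p140Cap replicate 1 (0.0987) or 3 (0.157), and under 4 other alternatives. The 5 oligoadenylate synthetase genes, which encode enzymes that switch on RNase L and their antiviral relatives, were the 5 without a test. Oas2 had 1 read in all 6 libraries together, and Oas3 had 1, 1 and 0 reads in mock and 1, 1 and 2 reads in p140Cap libraries. Oasl1, a translational brake on Irf7, had 14, 11 and 10 reads in the mock libraries, against 1 read in each p140Cap library, 3.39 times more per normalized library in mock cells (95% exact interval 1.07 to 17.2). Oas1a and Oasl2 had 15 and 32 reads in the pooled mock libraries, against 5 and 10 in the pooled p140Cap libraries, and their counting intervals held equal levels.

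Isg15 and Ifit2, both classical targets of type I interferon, were lower in p140Cap cells. Isg15 (ENSMUSG00000035692), a small ubiquitin-like protein, whose promoter with 3 matches is shown above, had 293, 122 and 122 reads in the mock libraries, against 23, 35 and 28 in the p140Cap libraries. These were 3.83, 3.07 and 3.66 CPM in mock libraries, against 1.52, 2.38 and 2.06 CPM in p140Cap cells, 1.79 times lower. The log2 fold change was -0.84 (SE 0.18, edgeR adjusted p = 0.00051), and it lay between -1.0 and -0.68 with each library left out in turn. Usp18, the protease that removes Isg15 and also damps the type I receptor, had 4, 5 and 6 reads in mock and 1, 3 and 5 reads in p140Cap libraries, with no difference detectable at this depth.

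The Ifit genes, whose products bind foreign RNA, form a cluster on chromosome 19 and were rare in both groups. Ifit2 (ENSMUSG00000045932; chr19:34550550-34576534 on GRCm38) had 122, 73 and 51 reads in the mock libraries, against 6, 9 and 15 in the p140Cap libraries. After normalization it was at 1.59, 1.84 and 1.53 CPM in mock libraries, against 0.395, 0.613 and 1.10 CPM in p140Cap cells, so the p140Cap libraries differed among themselves by more than the mock libraries did, and all were below them. The log2 fold change was -1.25 (SE 0.28, edgeR adjusted p = 0.000806). It was -1.71 without p140Cap replicate 3 and -0.96 without p140Cap replicate 1, and requiring 10 reads in each library removed the gene from the test. Genes of chromosome 19 were lower as a whole, with a median log2 fold change of -0.34 over 424 genes tested, where the medians of the 19 other chromosomes lay between -0.07 and 0.06. The part of this shift in the value of Ifit2 was not tested. Its neighbours Ifit1 and Ifit3 had 16 and 7 reads in the pooled mock libraries, against 5 and 6 in the pooled p140Cap libraries, and intervals of their ratios included equal levels.

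Ifitm2 and Ifitm3, small membrane proteins that hinder virus entry, were the most abundant of the 30 genes per exon length. In mock cells they stood at 932 ± 45.1 and 783 ± 6.04 TPM and in p140Cap cells at 1100 ± 49.3 and 871 ± 32.3 TPM (SD, n = 3 each). Ifitm2 (ENSMUSG00000060591) was at 177, 173 and 195 CPM in mock libraries, against 209, 226 and 213 CPM in p140Cap cells, a change of 0.25 on the log2 scale (SE 0.05, edgeR adjusted p = 0.000599). Ifitm3 (ENSMUSG00000025492) was at 193, 192 and 201 CPM in mock libraries, against 210, 219 and 228 CPM in p140Cap cells, a change of 0.16 on the log2 scale (SE 0.05, edgeR adjusted p = 0.00591), and its call was lost without p140Cap replicate 3 (adjusted p = 0.0507). Both were higher in every p140Cap library by a small margin, where 73.4% of all genes tested had groups without overlap. Ifitm1, the third member of the family in this cluster, had 5 reads in the pooled mock and 2 in the pooled p140Cap libraries. The family shares similar sequence, so the division of reads between Ifitm2 and Ifitm3 is uncertain, and exons of Gm45717 overlap those of Ifitm2 on the same strand.

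**Figure D2:**
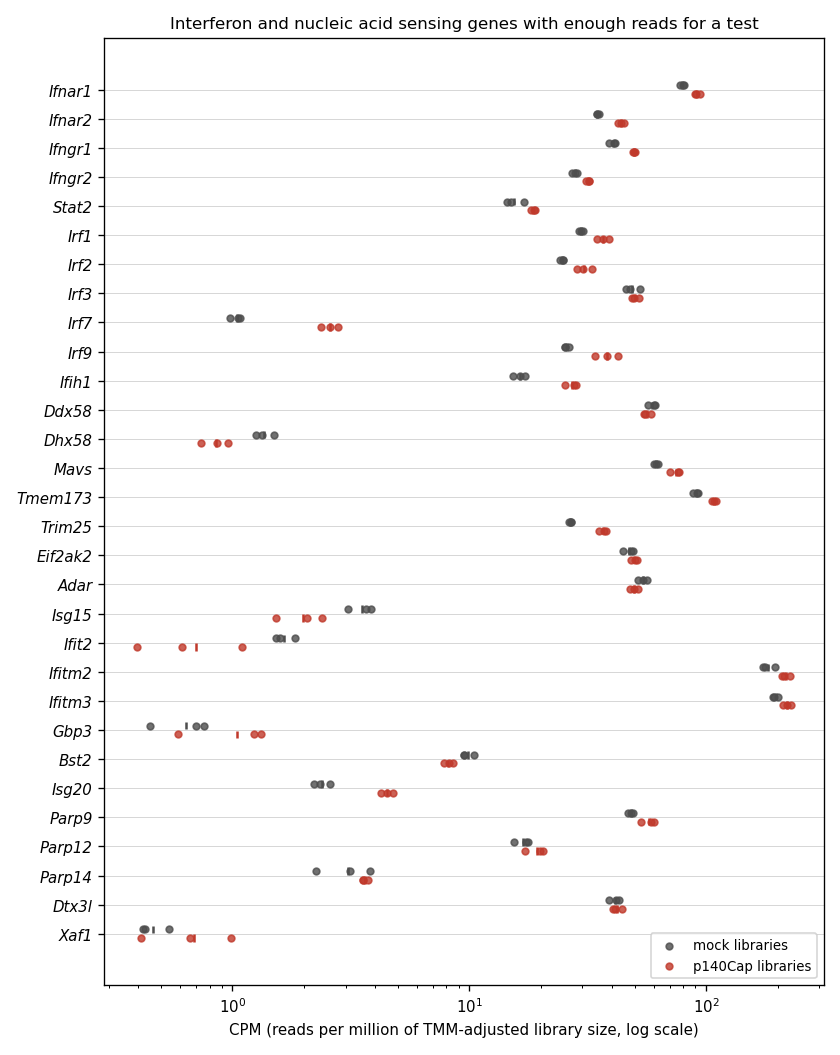
Level in CPM (log scale) of the 30 interferon and sensing genes with enough reads, with 1 point per library and a short bar at the mean of 3 mock (gray) or 3 p140Cap (red) libraries. Red points lie to the right of gray ones by small distances for most genes, with the widest gap for Irf7, and to the left for Dhx58, Adar, Isg15, Ifit2 and Bst2.

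Of the 4 remaining effector and induced genes with enough reads, Isg20 was higher, Bst2 was lower with a call that some alternatives lost, and Gbp3 and Xaf1 were not called. These calls are read beside the 35.2% higher and 35.9% lower of all genes tested. Isg20 (ENSMUSG00000039236), an exonuclease that degrades viral RNA, had 169, 103 and 78 reads in mock libraries and 64, 66 and 65 reads in p140Cap libraries, or 2.21, 2.59 and 2.34 CPM and 4.22, 4.50 and 4.77 CPM. It was 1.90 times higher in p140Cap cells without overlap of the groups, a change of 0.93 on the log2 scale (SE 0.14, edgeR adjusted p = 1.53e-05). Bst2 (ENSMUSG00000046718), or tetherin, which holds budding virus at the cell surface, was at 9.47, 9.50 and 10.5 CPM in mock libraries, against 7.78, 8.17 and 8.52 CPM in p140Cap cells. The decrease was small but without overlap, with a change of -0.26 on the log2 scale (SE 0.09, edgeR adjusted p = 0.0177), and the call was lost without p140Cap replicate 1 (adjusted p = 0.0741) and with DESeq2 (0.0558). Gbp3, a guanylate-binding GTPase, was at 0.758, 0.704 and 0.450 CPM in mock libraries, against 1.32, 1.23 and 0.588 CPM in p140Cap cells. The groups overlapped through p140Cap replicate 3, with a change of 0.66 on the log2 scale (SE 0.31, edgeR adjusted p = 0.0696), and without that library the gene was called (log2 fold change 0.93, adjusted p = 0.0176). Xaf1, a proapoptotic interferon target, had between 17 and 32 reads in mock and between 6 and 15 reads in p140Cap libraries, with overlapping groups (log2 fold change 0.61, SE 0.35, adjusted p = 0.129, edgeR).

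The interferon-inducible Parp genes, ADP-ribosyltransferases that act with the ubiquitin ligase Dtx3l, changed little. Parp9 was at 48.0, 48.9 and 46.9 CPM in mock libraries, against 60.2, 52.9 and 58.6 CPM in p140Cap cells, a change of 0.26 on the log2 scale (SE 0.06, edgeR adjusted p = 0.000677). Its partner Dtx3l, whose gene overlaps it on chromosome 16, was not called, at 41.1 ± 2.02 CPM and 41.9 ± 2.07 CPM (SD, n = 3 each), a change of 0.03 on the log2 scale (SE 0.06, edgeR adjusted p = 0.711). Exons of both genes overlap on opposite strands in the annotation, and while the paper's methods describe stranded libraries, the use of strand in counting was not given in the sources used here. Parp12 was at 15.5, 17.7 and 17.3 CPM in mock libraries, against 20.5, 17.2 and 19.8 CPM in p140Cap cells, so p140Cap replicate 2 lay among the mock libraries. Its log2 fold change was 0.20 (SE 0.08, edgeR adjusted p = 0.0405), and the call was lost without mock replicate 1 (0.13, adjusted p = 0.213), without p140Cap replicate 1 (0.14, adjusted p = 0.198) and without p140Cap replicate 3 (0.17, adjusted p = 0.127). It was also lost with DESeq2 (adjusted p = 0.0779), without the filter (edgeR, 0.0657), with the replicate block (0.0763) and in thinned libraries (0.11, adjusted p = 0.282). Parp14 ranged from 2.25 to 3.80 CPM in mock libraries, against 3.54 to 3.75 CPM in p140Cap cells, and was not called.

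The 14 genes with too few reads never exceeded 34 reads in a library, and their mean level was at most 0.535 CPM in either group. Beside Mb21d1, the oligoadenylate synthetases, Usp18, Ifit1, Ifit3 and Ifitm1, they were Mx1, Gbp2, Rsad2 and Rtp4. Rtp4, a receptor-transporting protein induced by type I interferon, had 34, 15 and 13 reads in the mock libraries, against 4, 0 and 1 in the p140Cap libraries. Its level over all libraries was 3.60 times higher in mock cells (interval 1.46 to 11.5), and exons of Gm45338 overlap it on the same strand. Gbp2, an interferon-induced GTPase whose promoter holds the response element, had 25, 9 and 10 reads in mock and 7, 6 and 10 reads in p140Cap libraries, 1.80 times higher in p140Cap cells (interval 1.04 to 3.04). Together with Oasl1, these were the 3 of 13 genes with reads in both groups whose counting interval did not include equal levels, 2 toward mock and 1 toward p140Cap cells. Intervals cover counting error only. Rsad2, or viperin, had 13 reads in the pooled mock and 9 in the pooled p140Cap libraries, and Mx1, annotated by RefSeq as a transcribed pseudogene in the reference strain, had 28 and 10.

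**Figure D3:**
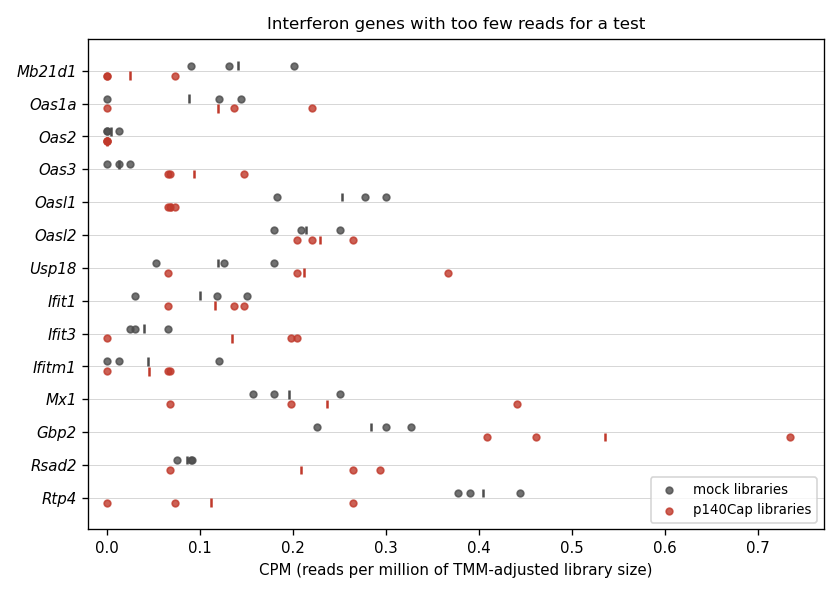
Level in CPM of the 14 interferon genes too rare for a test, with 1 point per library and a short bar at the mean of each group (gray mock, red p140Cap, 3 libraries each). All points lie below 1 CPM, with p140Cap points left of mock points for Oasl1, Rtp4 and Mb21d1 and right of them for Gbp2 and Oas3.

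Per exon length, the 30 genes with enough reads spanned a wide range. In mock cells, 3 of them stood above 100 TPM (Ifitm2, Ifitm3 and Tmem173), 19 between 10 and 100 TPM and 8 below 10 TPM, and in p140Cap cells these counts were 3, 20 and 7. The order of the leading genes was Ifitm2, Ifitm3 and Tmem173 in both groups. Below them, Ifngr1 at 72.7 ± 3.52 TPM and Irf3 at 71.7 ± 3.93 TPM could not be told apart in mock cells (SD, n = 3 each), while in p140Cap cells Ifngr1 stood at 88.7 ± 0.953 TPM and Irf3 at 73.2 ± 2.78 TPM. In mock cells Isg15 was at 23.1 ± 2.57 TPM, Ifit2 at 1.44 ± 0.157 TPM and Irf7 at 1.41 ± 0.0560 TPM, and in p140Cap cells at 12.9 ± 2.87, 0.606 ± 0.308 and 3.48 ± 0.266 TPM (SD, n = 3 each).

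The wider pathway was read from a list of 99 other genes, chosen with earlier results of these data known. Of them, 98 had a row and 73 had enough reads. Of these 73, 40 were higher, 14 were lower and 19 were not called (edgeR), with a median log2 fold change of 0.20. In all, 74.0% were called, beside 71.1% of all genes tested. Changes of at least 1 log2 unit were found for 12 higher genes and 3 lower ones, beside 4.93% and 5.04% of all genes tested. Of the 4 interferon genes on the list, Ifnb1, Ifng and Ifne had no read in any library and Ifnk had 3 reads in the pooled mock libraries, against 1 in the pooled p140Cap libraries. A count of 0 allows up to 0.0392 CPM in the deepest library and up to 0.22 CPM in the shallowest, taking 3 reads per library as the limit, so no difference in their level was detectable at this depth. Other interferon genes were not read.

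In the cascade below the receptors, 6 of 9 tested genes of the JAK and feedback group were higher and 1 was lower, so that 77.8% were called, beside 71.1% of all genes tested. The kinase genes Jak1 and Tyk2 that serve the type I receptor had log2 fold changes of 0.27 (adjusted p = 5.82e-05, edgeR) and 0.56 (adjusted p = 1.46e-07, edgeR). Of the 20 tested genes of the sensing cascade, 5 were higher and 5 lower, with 10 not called. Among the cascade genes, Traf3, an adaptor below Mavs, fell from 58.1 to 36.7 CPM, a change of -0.66 on the log2 scale (SE 0.05, edgeR adjusted p = 8.68e-09). Zbp1, a sensor of Z-form nucleic acid, had 36, 9 and 12 reads in mock and 16, 20 and 12 reads in p140Cap libraries, a change of 1.54 on the log2 scale (SE 0.33, edgeR adjusted p = 0.000493). It had enough reads for a test through the p140Cap libraries, where it was higher.

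The 31 tested genes listed as further interferon-stimulated genes held 24 that were higher and 4 that were lower, with a median log2 fold change of 0.62. In all, 90.3% of them were called, beside 71.1% of all genes tested, of which 35.2% were higher and 35.9% lower. The list was chosen with earlier results of these data known, so these shares describe the list only. Irgm2, an immunity-related GTPase, had 112, 51 and 38 reads in the mock libraries, against 85, 74 and 59 in the smaller p140Cap libraries, a change of 1.91 on the log2 scale (SE 0.16, edgeR adjusted p = 1.72e-08). Igtp, of the same family, had a change of 1.51 on the log2 scale (SE 0.18, edgeR adjusted p = 1.08e-06), and Psmb9, a subunit of the immunoproteasome, a change of 1.77 (SE 0.26, adjusted p = 1.04e-05, edgeR). Exons of Irgm2 and Igtp overlap on the same strand, so the division of reads between them is uncertain. Gbp6 had the largest increase, a change of 2.53 on the log2 scale (SE 0.47, edgeR adjusted p = 0.000159), and rested on 13, 2 and 2 reads in mock and 11, 8 and 10 reads in p140Cap libraries. Gbp6 had enough reads for a test only through the p140Cap libraries, where it was higher, so its rank depends on that group. The largest decreases of this group were in Cmpk2 and Lgals9. Cmpk2, a nucleotide kinase next to Rsad2 that type I interferon induces, was at -1.28 with overlapping groups (SE 0.40, adjusted p = 0.00951, edgeR). It had enough reads for a test through the mock libraries, where it was higher. Lgals9, encoding galectin-9, was at -1.22 (SE 0.23, adjusted p = 0.000138, edgeR). Of the 9 nuclease and clearance genes, 4 were lower and 1 was higher (55.6% called, beside 71.1% of all genes tested). They included Dnase2a, a lysosomal DNase, at -1.56 (SE 0.18, adjusted p = 5.99e-07, edgeR), and Rnaseh2c, a subunit of an RNase that removes RNA from DNA and a gene of chromosome 19, at -0.59 (SE 0.08, adjusted p = 4.59e-06, edgeR).

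**Figure D4:**
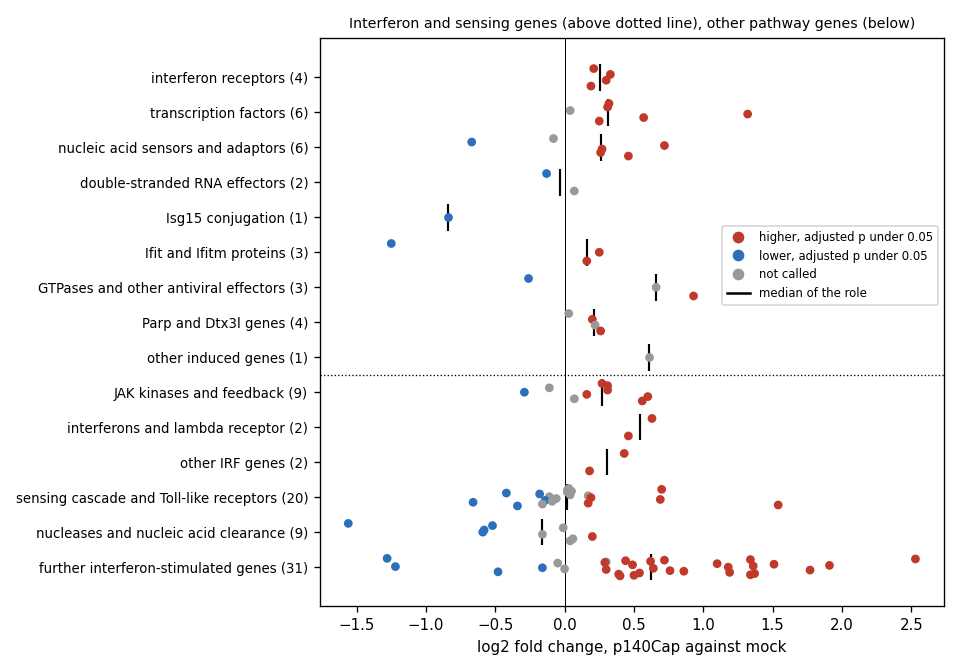
Log2 fold change in p140Cap against mock TuBo cells for the 30 tested interferon and sensing genes (above the dotted line) and 73 other genes of the pathway (below it), by role, with the number of genes in parentheses and a black bar at the median of each role. Red points are higher, blue points lower and gray points not called at an adjusted p of 0.05 (edgeR). Receptor genes lie together between 0.19 and 0.33, while the further interferon-stimulated genes spread from -1.28 to 2.53 with a median of 0.62. The genes at both ends of that spread had enough reads for a test through the group where they were higher. Both lists were chosen with earlier results of these data known.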

How the data were processed

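RNA-Seq of 3 mock and 3 p140Cap TuBo libraries was analysed. The authors deposited counts, whole numbers of reads on each of 21960 genes, without normalization and with replicates kept apart. The submitters' processing notes name STAR 2.5, RSEM and build mm10, while the paper names GRCm39 as mouse reference. The paper describes a stranded library kit, and use of strand in counting was not given in the sources used here.

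After TMM normalization and filterByExpr, edgeR 4.0.16 (R 4.3.3) compared the groups for 11800 genes by its quasi-likelihood test, without covariates and with Benjamini-Hochberg adjustment over all genes tested (threshold 0.05). Each SE is the size of the log2 change over the root of F. TPM values used exon lengths of GENCODE vM39, which also gave overlaps and chromosomes. Promoters and positions came from RefSeq (GRCm38.p6). On simulated counts for this comparison, edgeR recovered 97.5% of 199 changed genes among 11737 tested, and 3% of its calls were false. Changes were planted in 200 genes, at 0.5 log2 units or more, with the same variability between libraries for every gene. Changes under 0.5, and data in which 71.1% of genes are called, were not simulated, so recovery there was not measured.

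No source states that replicates came from separate cultures, so p-values measure the spread between these libraries, which may be technical. With 3 against 3, an exact permutation test cannot give a p below 0.1. The mean chi-square value between libraries of a group was at least 1.75, where sampling noise gives 1, so no library copied another.

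The genes and lists were chosen with earlier results of these data known. Full values are given for genes changed by at least 1 log2 unit and, in each role, for the 3 called genes that changed most, reads for genes with too few reads, and, of the other pathway genes, the 5 largest decreases and increases. Some results that the rule covers are not reported here. Ifngr2, Mavs, Tmem173, Eif2ak2, Ddx58, Irf2, Irf3, Stat2, Gbp3, Xaf1, Dtx3l, Parp14, Jak1, Tyk2 and the interferon genes were detailed beyond that rule after their values were seen. Alternatives were DESeq2 1.42.0, RLE factors, no filter, a minimum of 10 reads per library, voom (limma 3.58.1), omission of single libraries, a block for replicate number, and libraries thinned to the smallest total.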

Additional observations from a re-analysis of the deposited data

How the results depend on the processing

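Of the 30 genes tested, 23 kept their direction and their side of the threshold under each of the alternatives that tested them, and so did 18 of the 23 called genes. The exceptions among called genes were Adar, Parp12, Dhx58, Bst2 and Ifitm3, and Gbp3 was gained by some settings. Dtx3l, not called under any setting, turned from 0.03 to -0.02 without mock replicate 3, to -0.02 without p140Cap replicate 1 and to -0.00 without a filter (log2), and lay between -0.02 and 0.06 with each library left out. The count of 18 higher genes was 17 or 18 under every alternative. The count of 5 lower genes was 2 with DESeq2, and between 3 and 5 with each library left out in turn, reaching 3 without p140Cap replicate 1 and without p140Cap replicate 3. The median log2 fold change of 0.25 was 0.22 without a filter on low counts, where all 44 genes enter, and between 0.23 and 0.25 with each library left out. With the libraries thinned to the smallest total, 28 of the 30 genes were tested, 17 were higher and 4 lower. Rtp4 rested on single libraries. It was called lower without the filter (log2 fold change -1.83, adjusted p = 0.00926, edgeR) and without p140Cap replicate 1 (-3.42, adjusted p = 0.00364, edgeR), and was not called without p140Cap replicate 2 (-1.23, adjusted p = 0.0885, edgeR) or 3 (-1.60, adjusted p = 0.0628, edgeR). The count of 12 genes with the response element core was 16 when the 50 bases after the start were included, and the TTCNNNGAA count of 8 was 11.

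No pairing of the libraries by replicate number was seen. The correlations of deviations between same-numbered mock and p140Cap libraries were -0.0299, -0.106 and -0.0573. Those between different-numbered libraries lay between -0.0282 and 0.0801. Counting noise enters these deviations, so a pairing could be missed. With the replicate number as a block, 18 genes were higher and 4 lower, Adar and Parp12 lost their calls and Gbp3 gained one (edgeR). Depth limits the 14 genes with too few reads, of which 3 had a counting interval that did not include equal levels.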
